A study of Mus musculus with 12 samples.

Results

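Rbm3 and Cirbp encode the cold-inducible RNA-binding proteins of the mouse, and they are 2 of the 25239 genes listed in the count table of this study. Both genes were selected on these same libraries because they were higher after heat stress than in control in the brain and in the liver. The heat stress against control values of the pair therefore chose the pair, and they are given below as a description with no test. The study exposed C57BL6/J wild type male mice, 24 months old, to periodic heat stress at 40 ± 0.5 °C and 60 ± 5% relative humidity for 3 h per day over 15 days, and kept control mice without it. Messenger RNA of brain and liver was sequenced from 3 mice per group, which gave the 4 groups Brain Control, Brain Heat Stress, Liver Control and Liver Heat Stress and 12 libraries. Both tissues were harvested from the mice of each condition, so that a brain and a liver library may come from the same mouse, but the sources used here do not tie libraries to mice. Each library is 1 piece of frozen tissue, the brain region that was taken is not given in the sources used here, and the same is true of the hour at which the mice were killed. The age given for the mice at death places it about a day after the last exposure, if exposure began at 24 months, and the interval in hours is not given.

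Rbm3 and Cirbp belong to a small family in which a single RNA recognition motif at the amino end is followed by a tail rich in arginine and glycine. Mild cooling of cells raises both transcripts and heating lowers them, and in mouse liver Cirbp follows the daily rhythm of body temperature. In the brain RBM3 is known for protecting synapses during cooling. CIRBP is known for binding the transcripts of clock genes, and for acting as an inflammatory signal when it is released from cells.

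Rbm3 (ENSMUSG00000031167.16) lies on chromosome X from 8138975 to 8145880 on the minus strand of GRCm38 (mm10), and GENCODE M21 gives it 11 transcripts, of which 6 are protein-coding. Cirbp (ENSMUSG00000045193.13) lies on chromosome 10 from 80165985 to 80172786 on the plus strand, with 7 transcripts, of which 2 are protein-coding and 4 retain an intron. Translation of the coding transcripts Rbm3-204 and Cirbp-202 gave proteins of 154 and 172 residues that were identical at 110 of 150 aligned positions (73.3%) and at 76.2% of the first 84, where the RNA recognition motif lies. In the tail behind these 84 residues glycine made up 31.4% of RBM3 and 29.5% of CIRBP. The coding stretch around RNP1, the short motif of the RNA recognition motif that contacts RNA, is shown because it is where the likeness of the pair can be read in the DNA. Each line gives 60 exonic coding bases of the transcript strand, 5′ to 3′, from the GENCODE M21 transcripts, with RNP1 (residues 47 to 54 in both proteins) in the central 24 bases, and capitals mark the bases at which the genes differ.
Rbm3, chrX:8144603-8144662, minus strand: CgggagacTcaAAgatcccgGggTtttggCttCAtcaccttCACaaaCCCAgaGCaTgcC
Cirbp, chr10:80170033-80170092, plus strand: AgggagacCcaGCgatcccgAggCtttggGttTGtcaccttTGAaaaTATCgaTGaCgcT
The stretches were identical at 40 of 60 bases (66.7%), and 6 of the 24 bases of RNP1 differed. The likeness does not extend over runs as long as a read. Of the 1313 different 100-base runs in the protein-coding transcripts of Cirbp, 0 occurred in the transcripts of another gene. For Rbm3 it was 289 of 3788 (7.63%), shared with the pseudogene Rbm3-ps, Gm10156 and Gm48583, so that reads of Rbm3 could in part have been placed elsewhere or counted from these copies. With 50-base runs it was 0 of 1363 for Cirbp and 488 of 3670 (13.3%) for Rbm3, shared with more genes. Rbm3os, annotated on the opposite strand, overlaps 94 of the 4698 exonic bases of Rbm3 (2%), and its own count was between 0 and 6 in every library.

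The RefSeq promoter table of GRCm38.p6 holds 2 windows of Cirbp and no entry for Rbm3. The stretch shown lies upstream of the first exon of Cirbp-202 and is given for 3 motifs, which are in capitals: TCCCCGCC, known as the mild-cold response element of Cirbp, the GGGCGG box bound by Sp1, and CCAAT, each searched on both strands.
Cirbp, chr10:80167589-80167777, plus strand: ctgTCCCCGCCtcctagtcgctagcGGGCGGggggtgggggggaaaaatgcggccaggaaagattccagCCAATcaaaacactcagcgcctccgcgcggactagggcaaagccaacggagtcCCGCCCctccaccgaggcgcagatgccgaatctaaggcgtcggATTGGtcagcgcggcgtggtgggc
TCCCCGCC began 186 bases before the exon, and 2.86% of the 32851 promoter windows of RefSeq held it within a stretch of the same 189 bases. GGGCGG matched at 164 bases on the plus strand and at 67 on the minus strand (22.6% of windows), and CCAAT at 120 bases on the plus strand and 24 on the minus strand (26.5%). The full window that this stretch opens held GGGCGG at 3 places, the last of which runs past the end of the stretch. The letters of the heat shock element searched, GAANNTTC (4.89% of windows) and TTCNNGAA (5.35%), were not in this stretch, nor were the cyclic AMP element TGACGTCA (0.685%) and the E-box CACGTG (3.99%). The other window of Cirbp, chr10:80167921-80168220, held GGGCGG at 4 places, and TCCCCGCC, CCAAT and the other letters searched at 0. These matches are letters only, and binding was not measured.

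The libraries held between 10466198 and 15609040 counted reads. Markers of the labelled tissues were in place. The summed level of 5 hepatocyte markers was at least 67793 CPM (counts of a gene per 1000000 counts of the library) in every liver library and at most 2327 in brain, and that of 5 neuronal markers was at least 5192 in brain and at most 30.5 in liver. Some features of the libraries stand apart and recur below. Skeletal muscle markers, at 0.932 to 6.07 CPM in 4 liver libraries, reached 322 in Liver Control replicate 1 and 1933 in Liver Heat Stress replicate 2. In brain, striatal markers summed to 533, 924 and 520 CPM in control and 1250, 893 and 1971 after heat stress, while endothelial markers summed to 130, 66.4 and 78.2 in control and 47.8, 59.5 and 41.8 after heat stress.

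In the brain, Rbm3 was counted 1373, 1186 and 1306 times in the control mice and 1806, 2082 and 1760 times in the heat stress mice. As CPM scaled within the tissue by edgeR's TMM factors, these are 94.1, 103 and 106 in control and 167, 186 and 166 after heat stress. The heat stress mice lay close together and all stood above the control mice, the lowest of them at 1.57 times the highest control. The means were 101 ± 6.15 and 173 ± 11.6 (SD, n = 3 each), a fold of 1.71 and a log2 difference of 0.78 (SE 0.11). Cirbp gave 1191, 1044 and 1036 counts in control brain and 1345, 1357 and 1348 after heat stress. Its CPM were 81.7, 91.1 and 83.9 in control and 124, 122 and 127 after heat stress. The 3 heat stress brains differed by a coefficient of variation of only 2.32%, and the lowest stood at 1.33 times the highest control. The fold was 1.45, with means of 85.5 ± 4.94 and 124 ± 2.88 (SD, n = 3 each), and the log2 difference was 0.54 (SE 0.10). In tissue pieces such as these, a change in the share of a cell type and a change in the RNA of each cell cannot be told apart.

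In the liver, Rbm3 was counted 644, 596 and 484 times in control and 987, 876 and 715 times after heat stress. This corresponds to 41.6, 48.6 and 45.1 CPM in control and 73.5, 61.0 and 56.4 CPM after heat stress. The groups did not overlap, but the gap was narrower than in brain, with the lowest heat stress liver at 1.16 times the highest control. The means were 45.1 ± 3.52 and 63.6 ± 8.84 (SD, n = 3 each), and the log2 difference was 0.50 (SE 0.17). Cirbp was counted 331, 248 and 164 times in control liver and 375, 476 and 388 times after heat stress. Its CPM were 21.4, 20.2 and 15.3 in control and 27.9, 33.2 and 30.6 after heat stress, and the lowest heat stress liver stood at 1.31 times the highest control. The means of 19.0 ± 3.23 and 30.6 ± 2.63 (SD, n = 3 each) differed by 0.69 on the log2 scale (SE 0.18), a fold of 1.61.

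**Figure D1:**
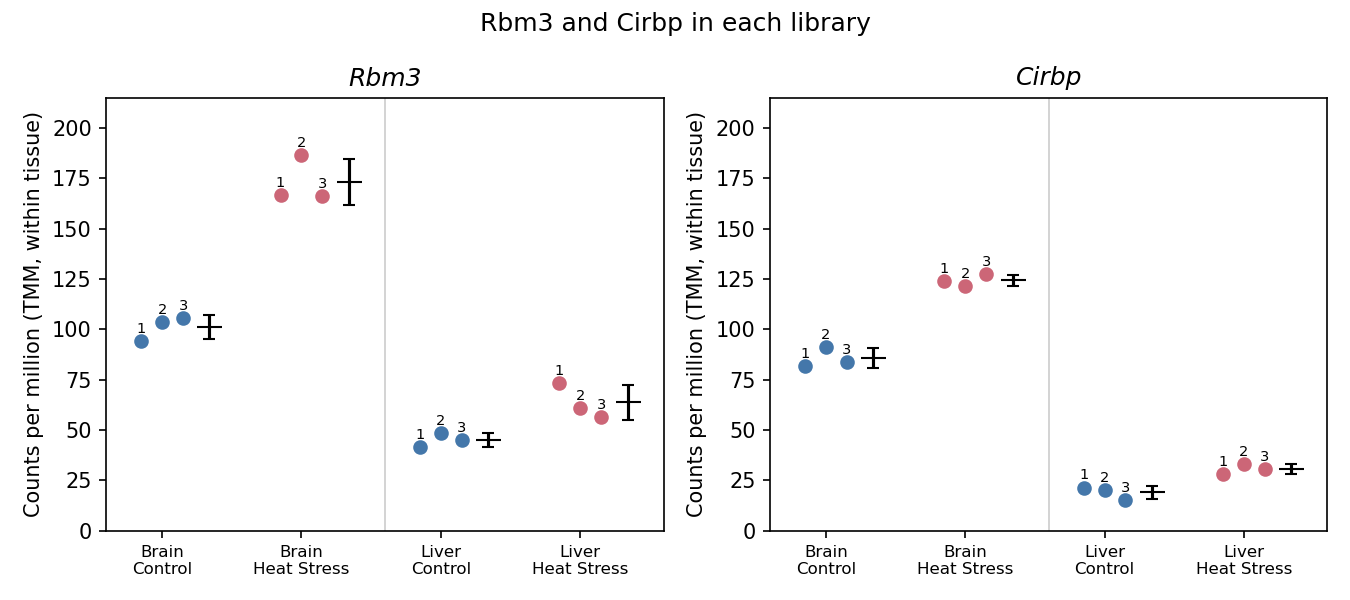
CPM of Rbm3 (left) and Cirbp (right) in each library, scaled by TMM within each tissue, with the replicate number above each point and the mean ± SD of 3 mice beside them. In both genes and both tissues the 3 heat stress mice (red) lie above the 3 control mice (blue), and the gap is narrowest for Rbm3 in liver, at 1.16 times.

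Every heat stress library above every control library was also found for 12.9% of the 14806 genes tested in brain and for 5.38% of the 12296 tested in liver. The pair was chosen for this feature and nothing is read from it. Ordered by log2 difference, Rbm3 was in place 272 and Cirbp in place 866 of the genes tested in brain, and in liver Cirbp was in place 422 and Rbm3 in place 827. In brain the difference of Rbm3 was the larger of the pair and in liver that of Cirbp. Of the 11322 genes tested in both tissues, 66 (0.583%) had every heat stress library above every control library in each of them, and 46 (0.406%) had log2 differences at least as high as those of Cirbp in brain and of Rbm3 in liver.

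**Figure D2:**
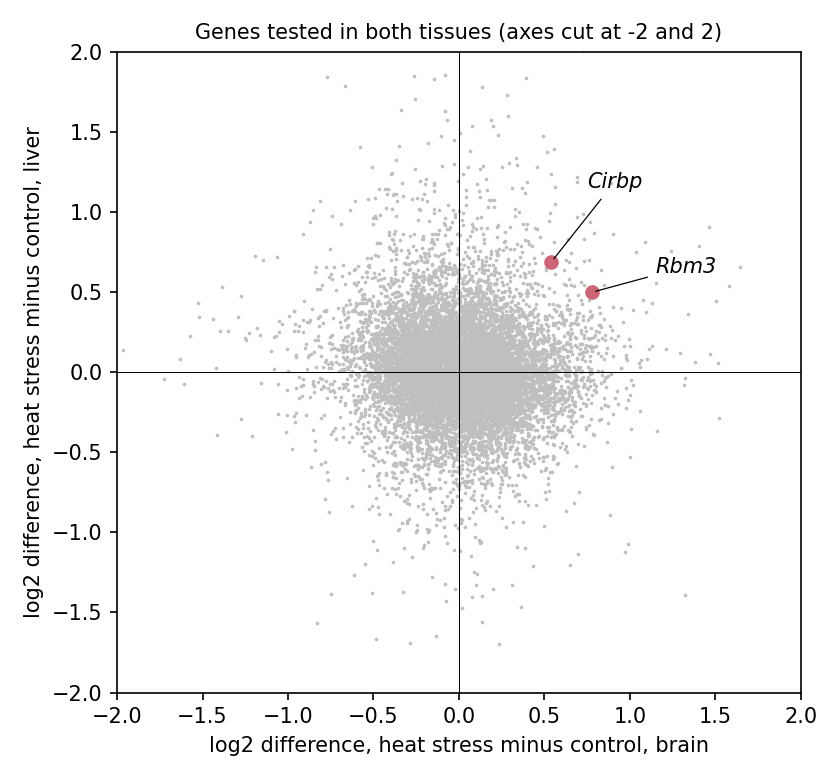
log2 difference between heat stress and control in brain (horizontal axis) and liver (vertical axis) for each of 11322 genes tested in both tissues (grey), with axes that end at -2 and 2. Rbm3, at 0.78 and 0.50, and Cirbp, at 0.54 and 0.69, lie in the upper right at the edge of the cloud and not outside it.

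The size of the difference was also set side by side between the tissues, in a single fit of all 4 groups. For Rbm3 the liver value minus the brain value was -0.29 (SE 0.19) on the log2 scale, and for Cirbp it was 0.13 (SE 0.23). No test is given and nothing is read from these values because both differences were used in the choice.

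Several features of the libraries differed between the same groups as the pair. In brain, 4 of the 9 striatal markers were higher with no overlap between the groups, as were 12.9% of all genes tested, and 4 of the 5 endothelial markers were lower with no overlap, as were 12% of all genes. The striatal sums given above overlapped between the groups. Choroid plexus markers summed to 92.9, 96.3 and 172 CPM in control brain and 63.1, 76.7 and 34.9 after heat stress. The hepatocyte list, which holds Ttr, a gene that choroid plexus also expresses strongly, summed to between 1164 and 2327 CPM in control brain and between 229 and 1070 after heat stress. The sums of the endothelial, choroid plexus and hepatocyte markers thus did not overlap between the brain groups. In liver, endothelial markers summed to between 71.3 and 79.5 CPM in control and between 82.2 and 95.2 after heat stress, and the choroid plexus list, of which between 2 and 5 of the 7 genes were at 0 in each liver library, between 66.4 and 85.4 and between 90.6 and 118, neither with overlap. The part of these cell types in the values of the pair was not tested. Without the 2 liver libraries that carried muscle transcripts the log2 difference in liver was 0.46 for Rbm3 and 0.71 for Cirbp. The column names of Liver Control replicate 2 and of Liver Heat Stress replicates 1 and 3 carry the suffix 2nd, which the sources used here do not explain. Among these 3 libraries the log2 difference was 0.42 for Rbm3 and 0.53 for Cirbp, and among the other 3 it was 0.49 and 0.86. The direction of all values with libraries left out or split is fixed by the choice of the pair, because every liver heat stress library lay above every control, and the part of muscle tissue and of the suffix was not tested.

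**Figure D3:**
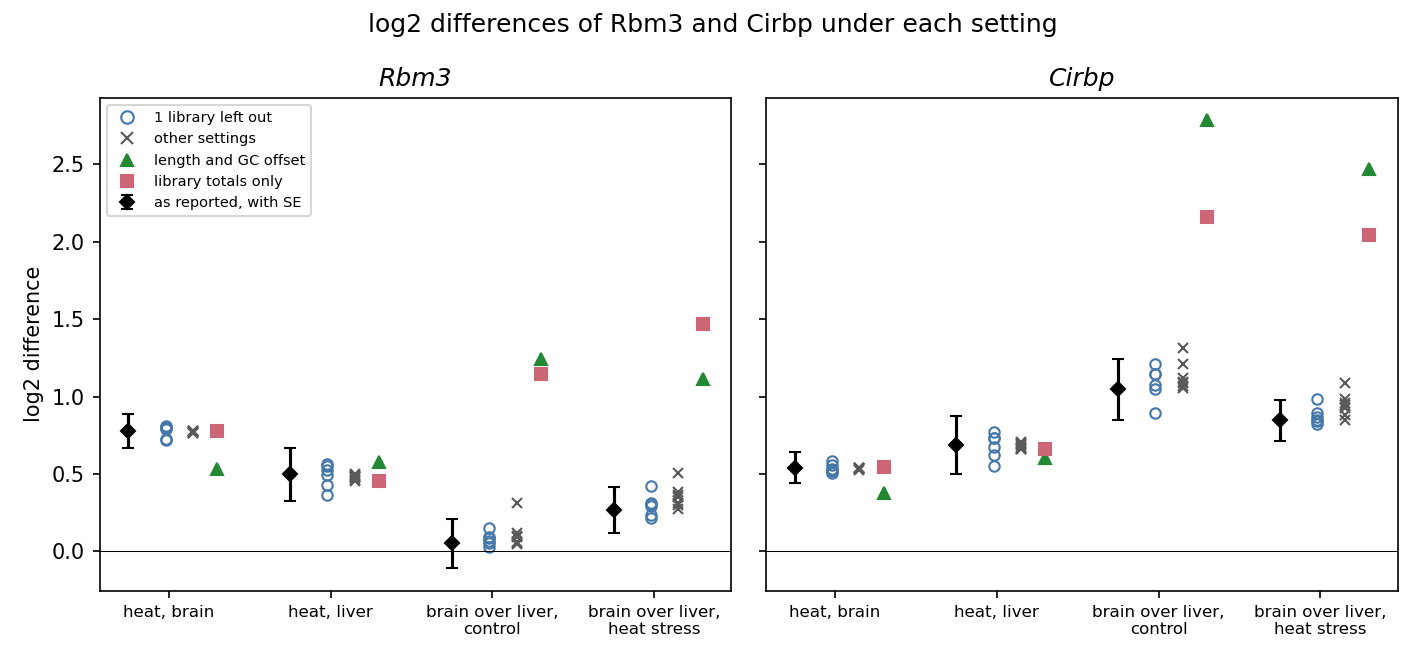
log2 differences of Rbm3 (left) and Cirbp (right) as reported (diamond, with SE) and under each alternative setting (other symbols), for heat stress against control in each tissue and for brain against liver in each group. The heat stress values lie above 0 in all settings shown, which the choice of the pair fixes where libraries are left out, while the brain against liver values move by more than 1 with the scaling by totals and, except for Rbm3 between the heat stress groups, also with the correction for length and GC content.

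One setting changed the brain values of both genes. With each library corrected for the length and GC content of the transcripts, the log2 difference in brain fell to 0.53 (SE 0.09) for Rbm3 and to 0.37 (SE 0.09) for Cirbp, whereas in liver it was 0.58 and 0.60. With each library left out in turn the difference of Rbm3 was between 0.72 and 0.81 in brain and between 0.36 and 0.56 in liver, and that of Cirbp between 0.51 and 0.58 in brain and between 0.55 and 0.77 in liver.

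How the pair is expressed in brain against liver was not used in the choice and could be tested. Cirbp was higher in brain. On CPM scaled over all 12 libraries it stood at 58.5 ± 3.04 in Brain Control and 28.1 ± 6.16 in Liver Control, and at 84.6 ± 2.20 in Brain Heat Stress and 44.5 ± 4.78 in Liver Heat Stress (SD, n = 3 each). The difference was 1.05 on the log2 scale between the control groups (SE 0.20, adjusted p = 0.000855) and 0.85 between the heat stress groups (SE 0.13, adjusted p = 9.68e-05, both by edgeR, adjusted after Benjamini-Hochberg over all genes). A call of brain higher is common in this contrast, and was made for 42.8% of the 15213 genes tested between the control groups and for 43.1% of the 15296 tested between the heat stress groups. The 4 groups of Cirbp were ordered Brain Heat Stress, Brain Control, Liver Heat Stress and Liver Control, and no neighbours in this order overlapped. The separation of heat stress from control within a tissue belongs to the choice of the pair, and nothing is read from it.

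For Rbm3 the tissues were not told apart in the control mice. It stood at 69.2 ± 4.34 in Brain Control and 66.3 ± 1.99 in Liver Control, a log2 difference of 0.05 (SE 0.16, edgeR adjusted p = 0.775), with a 95% interval of the fold from 0.834 to 1.29. After heat stress the levels were 118 ± 7.66 in brain and 92.5 ± 12.4 in liver (log2 difference 0.27, SE 0.15, edgeR adjusted p = 0.120). The groups of Rbm3 were ordered Brain Heat Stress, Liver Heat Stress, Brain Control and Liver Control, and only the control groups overlapped. This order holds for TMM over all 12 libraries. Scaled by library totals only, Brain Control (94.1 to 110 CPM) stood above Liver Heat Stress (52.4 to 71.7) and Liver Control (41.3 to 49.3), and no neighbours overlapped. In both orders the separation of heat stress from control within a tissue belongs to the choice of the pair.

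The sizes of these tissue differences rest on the scaling. By library totals the log2 difference between the control groups was 1.14 for Rbm3 and 2.16 for Cirbp. The same change of scaling moved the median of all genes tested from 0.20 to 1.30. Relative to that median, Rbm3 was at -0.15 under both scalings, and Cirbp at 0.84 under TMM and 0.86 under totals. Under the settings that changed the filter, the fit or the libraries, or corrected for transcript length and GC content, the value relative to the median was between -0.34 and 0.92 for Rbm3 and between 0.65 and 2.46 for Cirbp, so that the sign of Rbm3 turned and that of Cirbp did not. After heat stress the values relative to the median were 0.14 and 0.15 for Rbm3 and 0.72 under both scalings for Cirbp, and under the other settings they were between -0.05 and 0.88 for Rbm3, whose sign turned here too, and between 0.53 and 2.23 for Cirbp. The correction for transcript length and GC content also raised the control difference of Rbm3, to 1.24 (edgeR adjusted p = 5.84e-05), and those of Cirbp to 2.78 between the control groups and 2.47 between the heat stress groups. Between the heat stress groups Rbm3 passed the threshold of 0.05 under 5 of the other settings, with log2 differences between 0.35 and 1.12, and also when Liver Heat Stress replicate 1 was left out (0.42, edgeR adjusted p = 0.0201).

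Which gene of the pair is the more abundant depends on the transcript length assumed. Per kilobase of transcript (RPKM), with the lengths of Rbm3-204 (1152 bases) and Cirbp-202 (1321 bases), the level of Rbm3 was 1.30 to 1.76 times that of Cirbp in brain and 2.11 to 3.38 times in liver. With the longest transcript of Rbm3 (2792 bases), the same ratio was 0.537 to 0.726 in brain and 0.871 to 1.40 in liver. If both tissues use the same transcript of each gene, the contrast between the tissues does not depend on length. Which transcripts each tissue uses was not measured. The ratio of the pair in every liver library was above that in every brain library.

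Genes with the most similar profile were taken by Pearson correlation of log2 CPM, centred within each tissue, over the 12 libraries and 11322 genes. The libraries share group and tissue, so the values describe likeness only. The 5 genes most like Rbm3 were Il15, the gene of the cytokine interleukin 15 (r = 0.97), Fxr1, a relative of the fragile X protein (r = 0.90), E230016M11Rik (r = 0.90), the RNA polymerase II subunit gene Polr2g (r = 0.89) and Spata24 (r = 0.88). The heat stress differences of Il15 were 0.83 (SE 0.27) in brain and 0.64 (SE 0.28) in liver. The 5 most like Cirbp were Rbmx2, which also encodes an RNA recognition motif protein (r = 0.93), Cebpb, the gene of a transcription factor of liver and immune cells (r = 0.93), the DNA polymerase delta subunit gene Pold4 (r = 0.92), 1810010H24Rik (r = 0.92) and Fbxo6 (r = 0.91). The pair had r = 0.80 with each other, 0.97 within brain and 0.73 within liver. Cirbp was in place 48 among the genes most like Rbm3, and Rbm3 was in place 61 among those most like Cirbp. In liver, Rbm3 was highest in Heat Stress replicate 1 and Cirbp in Heat Stress replicate 2.

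**Figure D4:**
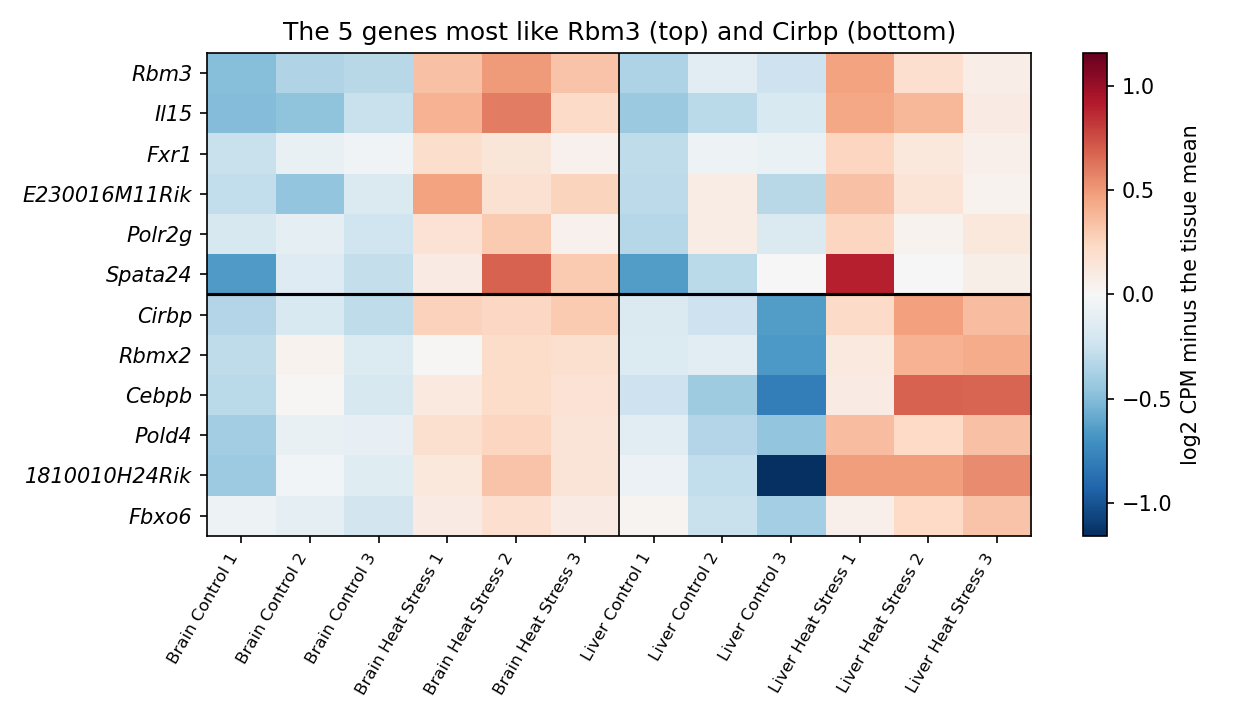
log2 CPM minus the mean of the tissue (colour scale) in each of the 12 libraries (columns) for Rbm3 and the 5 genes most like it (upper rows) and for Cirbp and the 5 most like it (lower rows). In liver the Rbm3 rows are highest in Heat Stress replicate 1, while Cirbp is lowest in Control replicate 3 and highest in Heat Stress replicate 2.

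The genes beside the pair on the chromosome were read next. Around Rbm3, Wdr13, Tbc1d25 and Ebp differed by 0.24 (SE 0.15), -0.40 (SE 0.22) and -0.04 (SE 0.14) in brain. In liver Wdr13, the nearest of them, was lower with no overlap between the groups, as were 5.73% of all genes tested (-0.30, SE 0.17, edgeR adjusted p = 0.930), against the direction of Rbm3, and Tbc1d25 and Ebp differed by -0.47 (SE 0.36) and 0.01 (SE 0.17). Was, counted 7 to 27 times per liver library, differed by 1.18 (SE 0.39, edgeR adjusted p = 0.694) in liver and -0.14 (SE 0.32) in brain. In liver it was higher with no overlap between the groups, as were 5.38% of all genes tested. Beside Cirbp, Midn, 7616 bases away, was lower in brain with no overlap between the groups, as were 12% of all genes tested. Its log2 difference was -0.40 (SE 0.12, edgeR adjusted p = 0.172), against the direction of Cirbp. In liver it differed by 0.42 (SE 0.25) with overlapping groups. Fam174c, which starts 157 bases behind Cirbp, differed by -0.06 (SE 0.25) in brain and -0.53 (SE 0.23, edgeR adjusted p = 0.849) in liver, where it was lower with no overlap. Atp5d differed by 0.04 (SE 0.11) and 0.18 (SE 0.25), and Efna2 by -0.17 (SE 0.21) in brain.

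Other genes of the cold and heat response were followed in 7 lists with 70 genes, of which 66 had enough counts to be tested in brain and 60 in liver. By edgeR's quasi-likelihood test 0 of them had an adjusted p under 0.05 in brain and 0 in liver, as did 0% of all genes tested in each tissue. At an unadjusted p under 0.05 there were 9 higher and 9 lower in brain, where 10% of all genes were higher and 10% lower, and 8 higher and 5 lower in liver, where it was 2.97% and 2.87%. Under the alternative settings, libraries left out included, the total ran from 7 to 20 in brain and from 9 to 21 in liver. DESeq2 gave 3 list genes with an adjusted p under 0.05 in brain (4.09% higher and 3.86% lower of its 7769 genes) and 4 in liver (0.239% and 0.281% of 11732). The clock list held the 3 DESeq2 calls in brain, and the clock and heat shock lists held 2 each in liver. Of 31 list results followed under the alternatives (a gene in a tissue), 9 of 15 in brain and 5 of 16 in liver moved by more than 1.5 times with the correction for transcript length and GC content, and 4 and 8 of them with a single library left out.

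The relatives with an RNA recognition motif were read first. Of 8 tested, 1 was higher at an unadjusted p under 0.05 in brain and 0 in liver, where 10% and 2.97% of all genes tested were. The median log2 difference of these relatives was 0.06 in brain and -0.25 in liver, beside medians of all genes of -0.0030 and 0.01. Tra2b, a splicing factor, was at 65.3, 81.2 and 80.7 CPM in control brain and 98.3, 101 and 87.6 after heat stress (log2 difference 0.34, SE 0.12, edgeR adjusted p = 0.194), and differed by -0.05 (SE 0.18) in liver. In brain it was higher with no overlap between the groups, as were 12.9% of all genes tested. Srsf10 differed by 0.18 (SE 0.10) in brain and -0.33 (SE 0.19) in liver. In liver Tra2a (-0.38, SE 0.21) and Hnrnpa3 (-0.42, SE 0.21) had overlapping groups, and without Liver Control replicate 3 Tra2a was at -0.20. Among proteins with a cold shock domain, the other family named for cold, 1 of 7 tested was higher at an unadjusted p under 0.05 in brain and 0 of 4 in liver. Ybx1 differed by 0.35 (SE 0.14, edgeR adjusted p = 0.209) in brain and by 0.19 (SE 0.20) in liver, where it was at 0.05 without Control replicate 1, 0.09 without Heat Stress replicate 1 and 0.30 without Heat Stress replicate 2. Ybx3 differed by 0.47 (SE 0.32) in liver, where Heat Stress replicate 2, with muscle transcripts, held its highest level and without which the difference was -0.01. With the correction for transcript length and GC content the brain differences of Tra2b, Ybx1 and Srsf10 were 0.12 (SE 0.09), 0.22 and -0.01.

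Among genes placed upstream of the pair, 2 of 6 tested in brain were lower and 0 higher at an unadjusted p under 0.05. In liver 0 of 5 passed that threshold in either direction. Of all genes tested, 10% were higher and 10% lower in brain, and 2.97% and 2.87% in liver. Trpv4, an ion channel gene linked to the induction of both genes by cold, was at 4.32, 4.97 and 9.39 CPM in control brain and 3.05, 3.85 and 1.70 after heat stress (log2 difference -1.11, SE 0.38, edgeR adjusted p = 0.182). It stood below the control range in all 3 heat stress brains, as did 12% of all genes tested. Without Brain Control replicate 3, its highest value, the difference was -0.69. The choroid plexus and endothelial markers were lower in the same brains, and their part in this value was not tested. Plcg1, which links the TrkB receptor to the induction of RBM3, differed by -0.42 (SE 0.15) in brain, or by -0.19 (SE 0.11) with the correction for transcript length and GC content, and by 0.24 (SE 0.24) in liver. The neurotrophin gene Bdnf differed by -0.12 (SE 0.14) in brain and -0.55 (SE 0.32) in liver, or -0.32 without Liver Heat Stress replicate 1. Creb1 differed by 0.02 (SE 0.11) in brain and -0.34 (SE 0.21) in liver, or -0.15 without Liver Control replicate 3. Of the genes downstream, which include a bound transcript and receptors of released CIRBP, 0 of 6 tested had an unadjusted p under 0.05 in either tissue. Txn1 differed by 0.33 (SE 0.16) in brain and the receptor gene Tlr4 by 0.55 (SE 0.29), and without Brain Control replicate 1 these were 0.21 and 0.33, while without Brain Heat Stress replicate 2 Tlr4 was at 0.35. Its partner Ly96 differed by -0.31 (SE 0.35) in liver, or by 0.04 without Liver Control replicate 2, and between -0.63 and -0.11 without each of the others. Rpa2 differed by -0.33 (SE 0.22) in liver, and by -0.20 and -0.52 without Liver Heat Stress replicates 1 and 2. Of the genes of temperature-dependent splicing, 1 of 7 was higher at an unadjusted p under 0.05 in brain and 0 in liver. Srsf7 was higher in all 3 heat stress brains (0.25, SE 0.10, edgeR adjusted p = 0.235). The correction for transcript length and GC content turned Srsf7 to -0.04 and Txn1 to -0.02 in brain, and Tlr4 was at 0.33 with it. The kinase gene Clk2 differed by 0.31 (SE 0.26) in brain, or by 0.11 without Brain Control replicate 2 and 0.16 without Brain Heat Stress replicate 3, and by 0.35 (SE 0.23) in liver. Hnrnph1, whose protein acts on the splicing of Rbm3, differed by -0.06 (SE 0.11) in brain and -0.33 (SE 0.20) in liver, or -0.11 without Liver Control replicate 3.

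The heat shock genes that passed an unadjusted p under 0.05 were lower after heat stress, except 1 in brain. Of 13 tested in brain, 4 were lower and 1 higher at an unadjusted p under 0.05, and of 12 in liver, 3 were lower and 0 higher. Among all genes tested, 10% were lower and 10% higher at that threshold in brain, and 2.87% and 2.97% in liver. The median log2 difference of the heat shock genes tested was -0.27 in both tissues. Hsp90aa1, the gene of an inducible HSP90, was at 162, 221 and 205 CPM in control liver and 66.9, 81.9 and 50.2 after heat stress, so that the groups stood far apart. Its log2 difference was -1.56 (SE 0.23, adjusted p = 0.107 with edgeR and 2.57e-08 with DESeq2). Hsph1, a partner of HSP70, was at 37.3, 48.2 and 43.1 CPM in control liver and 17.0, 14.2 and 18.5 after heat stress (-1.37, SE 0.18, adjusted p = 0.0678 with edgeR and 1.40e-07 with DESeq2). In brain Hsph1 differed by -0.33 (SE 0.12) and was lower with no overlap, as were 12% of all genes tested. Hsp90aa1 did not differ beyond its error there (0.13, SE 0.17). Hspa1a, the inducible HSP70 gene, was at 8.23, 5.50 and 4.61 CPM in control brain and 3.42, 3.58 and 3.21 after heat stress (-0.85, SE 0.26, edgeR adjusted p = 0.171). The mitochondrial chaperonin gene Hspe1 had a value above 0 in brain (0.54, SE 0.18), which was 0.11 (SE 0.09) with the correction for transcript length and GC content. Hspa1a has a near-identical neighbour, Hspa1b, and counting could have split their reads.

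Clock genes differed in both directions. In brain 5 of 19 were higher and 3 lower at an unadjusted p under 0.05, and in liver 8 of 18 were higher and 2 lower. The shares of all genes tested were 10% higher and 10% lower in brain, and 2.97% and 2.87% in liver. Dbp, a clock output gene, was at 74.0, 67.3 and 68.0 CPM in control brain and 97.4, 104 and 108 after heat stress (log2 difference 0.56, SE 0.10, adjusted p = 0.170 with edgeR and 0.00471 with DESeq2), close to the difference of Cirbp. In liver it was at 98.4, 45.1 and 72.2 CPM in control and 115, 158 and 175 after heat stress (1.05, SE 0.28). Nr1d2, a repressor of the clock, differed by 0.48 in brain (SE 0.11, adjusted p = 0.170 with edgeR and 0.0127 with DESeq2) and by 0.29 in liver (SE 0.27). Bhlhe41, another clock repressor gene, was at 3.23, 2.53 and 5.22 CPM in control liver and 13.3, 17.0 and 15.5 after heat stress. Its log2 difference was 2.07 in liver (SE 0.27, adjusted p = 0.0678 with edgeR and 2.13e-07 with DESeq2) and 0.28 in brain (SE 0.11). Per1 was at 20.5, 10.6 and 15.0 CPM in control liver and 23.9, 36.8 and 48.2 after heat stress (1.24, SE 0.30, adjusted p = 0.424 with edgeR and 0.0347 with DESeq2), and differed by 0.02 (SE 0.22) in brain. Among the genes with values below 0, Arntl and Clock, named after their values were seen, encode the partners of the activating clock complex. Arntl was at 38.0, 28.7 and 30.7 CPM in control brain and 21.9, 22.1 and 24.6 after heat stress, without overlap (-0.51, SE 0.14, adjusted p = 0.170 with edgeR and 0.0499 with DESeq2). In liver, where it was counted 12 to 69 times per library, it differed by -1.38 (SE 0.41, edgeR adjusted p = 0.604), also without overlap. Lower with no overlap were 12% of all genes tested in brain and 5.73% in liver. Clock differed by -0.71 in liver (SE 0.21, edgeR adjusted p = 0.584) and by -0.01 in brain (SE 0.10). In the fits within each tissue as described, no gene of either list passed edgeR's adjusted threshold, while in liver between 2 and 6 list genes did under 5 other edgeR settings and 4 without Liver Control replicate 1, among them Bhlhe41 and Hsph1 each time and Hsp90aa1 in all of these but the fit with the suffix as a term. The part of clock and heat shock genes in the values of Rbm3 and Cirbp was not tested.

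**Figure D5:**
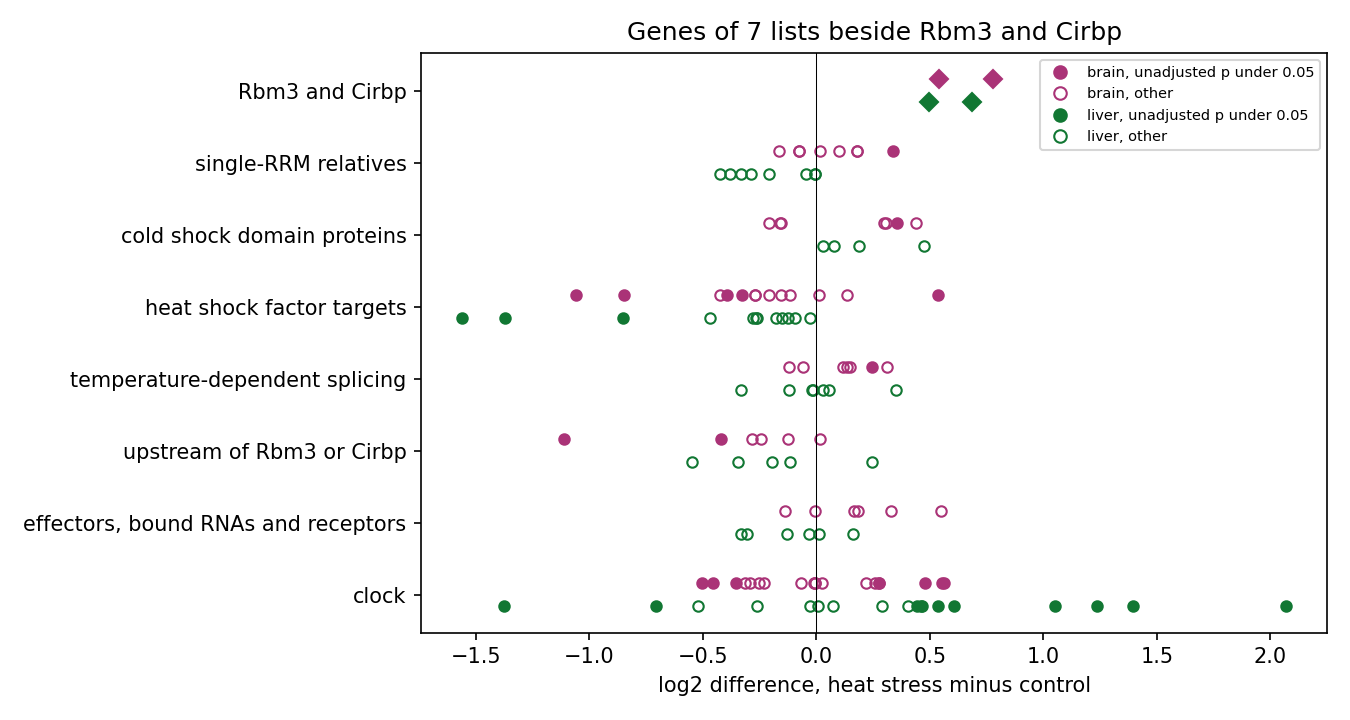
log2 difference between heat stress and control for each tested gene of 7 lists (circles) in brain (purple) and liver (green), filled at an unadjusted p under 0.05 by edgeR, with Rbm3 and Cirbp (diamonds, no test) at the top. Heat shock genes lie mostly below 0, down to -1.56 for Hsp90aa1 in liver, and clock genes spread to both sides, up to 2.07 for Bhlhe41 in liver.

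The change of the list genes was also compared between liver and brain by an interaction term in a single fit of the 4 groups. Of 74 list genes and neighbours in this fit, 0 had an adjusted p under 0.05 by edgeR's quasi-likelihood test and 18 had an unadjusted p under 0.05, beside 1 (0.00632%) and 9.64% of all 15824 genes in the fit. The 18 include genes with too few counts to be tested in liver alone, such as Hspa1a with 1 to 5 counts per liver library. Nothing is read from their number. The smallest were those of Bhlhe41, with a liver value 1.79 above that of brain (SE 0.30, edgeR adjusted p = 0.168), Hsp90aa1, with one 1.69 below (SE 0.31, edgeR adjusted p = 0.272), and Hsph1.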

How the data were processed

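Polyadenylated RNA of each tissue piece was sequenced with a stranded kit, 3 mice per group. The authors deposited unnormalized counts of reads per gene symbol, 1 column per library, and all 12 columns were used. The submitters' processing notes name FastQC 0.11.9, Trimmomatic 0.39, HISAT2 2.2.1, featureCounts of Subread 2.0.1, DESeq2 1.22.2 and the build mm10, while the methods also describe counting with Tophat2 and HTSeq. Annotation, strand setting and treatment of reads that match several genes are not given in the sources used here, and mitochondrially encoded genes are not in the table used here. The tables of the authors' own comparisons (fold changes and p-values) were not used.

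Counts were tested in R 4.3.3 with edgeR 4.0.16 (quasi-likelihood test, TMM factors, filterByExpr at 10 counts per library and 15 in total, Benjamini-Hochberg adjustment over all genes tested, threshold 0.05). Both Rbm3 and Cirbp passed the filter in all comparisons. A standard error is the log2 difference divided by the root of its F value. DESeq2 1.42.0 was the alternative tool, and an adjusted p that it left out stayed out. The 95% interval of a fold is the log2 difference ± 1.96 standard errors. The smallest p that an exact two-sided permutation test allows for 3 mice against 3 is 0.1. CPM are within a tissue except where all 12 libraries were scaled together. Coordinates, transcripts and lengths come from GENCODE M21, promoter windows from RefSeq GRCm38.p6, and motif shares from the same part of all windows. The procedures were tested on simulated counts.

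The pair, the gene lists and the marker lists were chosen with earlier results of these data known. Named list genes are the 2 with the smallest p in each tissue per list, and Arntl and Clock were added after their values were seen. The others named are the 5 genes most correlated with each of the pair and the nearest 2 protein-coding genes on each side. The neighbour annotated as 1600002K03Rik was matched to Fam174c through a RefSeq synonym. Replicates of every group differed by more than sampling noise. Replicate numbers were checked for pairing: libraries of Brain Control and Liver Control with the same number had correlated deviations from their group means (r = 0.34, 0.32 and 0.11, each highest with its own number), and the other groups did not. The alternatives were other size factors, DESeq2, no filter or at least 10 counts in every library, all 12 libraries in 1 fit, an offset for length and GC content of transcripts, scaling by totals, the replicate number as a block, the suffix 2nd as a term, and libraries left out. A gene that the rule for named genes picked from the lists is not reported here.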

Additional observations from a re-analysis of the deposited data

How the results depend on the processing

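The heat stress differences of Rbm3 and Cirbp kept their direction under every alternative run, which the choice of the pair fixes where libraries are left out. They moved by more than the spread between replicates with the correction for transcript length and GC content in brain, to 0.53 for Rbm3 and 0.37 for Cirbp. The cause of this was not tested. Between the control groups Rbm3 was at 1.24 with that correction, 1.14 when scaled by totals and 0.31 with at least 10 counts in every library. Cirbp was at 2.78 with the correction, 2.16 by totals and 1.32 with at least 10 counts in every library. Between the heat stress groups Rbm3 was at 0.36 with DESeq2's size factors in edgeR, 0.38 with DESeq2, 0.51 with at least 10 counts in every library, 0.35 with all 12 libraries in 1 fit, 1.12 with the correction and 1.47 by totals, and between 0.22 and 0.42 with 1 library left out, while Cirbp was at 2.47 with the correction and 2.04 by totals.

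List genes with an adjusted p under 0.05 numbered 3 in brain with DESeq2. In liver there were 4 with DESeq2, 3 each with no filter, with all 12 libraries in 1 fit and with the correction, 6 without the 2 libraries that carried muscle transcripts, 2 with the suffix as a term, and 0 to 4 with 1 library left out, the highest without Liver Control replicate 1. At an unadjusted p under 0.05 there were 18 in brain and 13 in liver, and with all 12 libraries in 1 fit 7 and 21. With 1 library left out there were 9 to 20 in brain, the lowest without Brain Control replicate 1, and 9 to 20 in liver. Of 431 refits of the 31 list results followed, 402 kept direction and side of the threshold, 24 passed it, and 5 reversed: Srsf10 to -0.0054, Srsf7 to -0.044 and Txn1 to -0.023 in brain with the correction, and Ybx3 (range -0.011 to 0.69) and Ly96 (-0.63 to 0.041) in liver with 1 library left out.

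With the replicate block, the tissue differences of the control groups, whose numbers pair, were 0.05 for Rbm3 and 1.07 for Cirbp, and no call changed. No source ties libraries of the same number to a mouse, and in the other comparisons, that of the tissues after heat stress included, the numbers were not correlated in all pairs. There, with the block the heat stress differences were 0.78 and 0.49 for Rbm3 and 0.54 and 0.70 for Cirbp in brain and liver, the tissue differences after heat stress were 0.27 and 0.85, and the list counts at an unadjusted p under 0.05 were 14 and 9. Cirbp in liver rests on 164 to 476 counts per library.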
